A study of Mus musculus with 16 samples.

Results

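The comparison described here sets TRaGS against TRaWT in CD25+ CD4+ regulatory T cells (Treg), the T cells that restrain immune responses and depend on the transcription factor Foxp3. It uses all 8 libraries of the deposited Treg table, 4 per genotype, out of the 16 libraries of the series; the other 8 are CD25- CD4+ T cells of the same animals, which the labels call naive. TRaGS mice carry a thyroid hormone receptor alpha (gene Thra) whose binding to DNA is abrogated, and the TRaWT mice are their wild-type littermates. Splenic CD4+ cells were enriched with magnetic beads and then sorted on CD25, and no treatment or stimulation is named. The labels give no age, sex or zygosity and name no promoter or Cre that would limit the mutation to a cell type. Xist was read at 1952 to 2916 normalised counts in all 8 libraries and the Y-linked gene Ddx3y was at 0 in all of them. Of 47643 genes in the table, the 11051 whose normalised counts averaged 5 or more were tested. Each library is a separate animal. The p-values draw on the spread between animals, pooled across genes of similar level (prior degrees of freedom 36.8). A gene's own spread between the animals thus counted less than this pooled value. CD25 was the only Treg marker of the sort, and recently activated conventional T cells can carry CD25 too. In such bulk samples a different number of cells with a transcript and a different amount of it per cell cannot be told apart.

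Thyroid hormone receptor alpha is a nuclear receptor. It binds response elements on DNA, usually together with a retinoid X receptor, and switches from repression to activation of its target genes when it takes up thyroid hormone. It can also act on kinase pathways without binding DNA, and the mutation studied here is directed at the DNA-bound mode. Treg in the spleen range from resting cells, which share homing receptors and quiescence factors with naive T cells, to effector Treg, which express costimulatory receptors, tissue-homing receptors and the regulators Prdm1, Maf, Gata3 and Rora.

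The receptor's element is built from the hexamer AGGTCA, commonly as a direct repeat with a spacer of 4 bases. In the RefSeq promoter table (build GRCm38.p6), windows of the 250 bases before annotated gene starts were searched on both strands. The hexamer stood in 7 of 73 windows of genes called higher in TRaGS (9.59%; 58 of 81 genes had a window), in 2 of 22 windows of genes called lower (9.09%; 14 of 25 genes), and in 1100 of 10375 windows of all tested genes (10.6%). The direct repeat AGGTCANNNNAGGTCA was in 0 windows of tested genes and in 5 of 32851 windows of the whole table. The windows of the 4 called genes with the smallest adjusted p that hold the hexamer are shown because their transcripts differ between the genotypes. They are read 5′ to 3′ on the plus strand, on which all 4 genes lie, with the hexamer or its reverse complement in capitals.
S100a4 (chr3:90603520-90603769): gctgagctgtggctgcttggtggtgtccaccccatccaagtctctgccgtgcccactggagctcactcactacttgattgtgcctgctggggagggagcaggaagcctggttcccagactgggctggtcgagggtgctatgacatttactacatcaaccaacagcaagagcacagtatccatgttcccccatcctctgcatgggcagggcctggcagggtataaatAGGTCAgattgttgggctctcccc
Il1rl1 (chr1:40439379-40439628): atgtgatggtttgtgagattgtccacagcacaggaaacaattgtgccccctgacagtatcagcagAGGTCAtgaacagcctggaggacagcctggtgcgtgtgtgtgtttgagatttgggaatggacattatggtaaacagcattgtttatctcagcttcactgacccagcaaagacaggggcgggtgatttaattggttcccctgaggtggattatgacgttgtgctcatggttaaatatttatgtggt
Nrp1 (chr8:128358823-128359072): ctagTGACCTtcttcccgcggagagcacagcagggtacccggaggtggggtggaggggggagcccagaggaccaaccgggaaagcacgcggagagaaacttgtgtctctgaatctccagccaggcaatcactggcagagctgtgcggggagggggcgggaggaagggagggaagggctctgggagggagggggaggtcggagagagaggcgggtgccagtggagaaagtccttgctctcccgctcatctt
S100a11 (chr3:93520246-93520495): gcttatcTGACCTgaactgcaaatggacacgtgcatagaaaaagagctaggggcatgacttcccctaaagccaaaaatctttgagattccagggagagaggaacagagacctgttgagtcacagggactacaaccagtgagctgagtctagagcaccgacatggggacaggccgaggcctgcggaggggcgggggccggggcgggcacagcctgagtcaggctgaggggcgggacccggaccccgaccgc
The S100a4 window ends just before that gene's start, with the hexamer 24 bases upstream. The Il1rl1 window lies before a start inside the gene and is 1 of 2 windows of this gene, with the hexamer at 185 bases upstream. In Nrp1 and S100a11 the reverse complement stands 246 and 243 bases before the RefSeq start that the window belongs to. The Nrp1 window lies inside the gene as the wider annotation has it, which begins at 128358604. By gene, 12.1% of called higher, 14.3% of called lower (2 of 14) and 12.6% of all tested genes had the hexamer. A match of these letters is a description and does not show binding.

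Recovered depth was 2912038 to 4154027 reads per library. The ribosomal RNA-like gene Gm42418 held 20.8% to 33.0% of reads, mitochondrial transcripts 8.80% to 13%, and ribosomal protein mRNAs 2.05% to 2.24% in TRaWT and 1.58% to 2.17% in TRaGS. With limma, 106 of 11051 tested genes (0.959%) were called at an adjusted p under 0.05, 81 higher in TRaGS (0.733%) and 25 lower (0.226%). These shares are set beside the counts of list members below. Of the 1181 tested genes that belong to any gene list 5.25% were called, and the lists were chosen with earlier results of these data known. A list with a share near 5.25% is thus close to the listed genes as a whole. The 4 values of 1 genotype lay entirely above or below the 4 of the other in 560 genes (5.07% of those tested), 314 higher and 246 lower, and in 95 of the 106 called genes. A further 325 genes had no overlap and an unadjusted p under 0.05 without passing the adjustment. The median log2 fold change of all tested genes was 0.0057, computed as TRaGS minus TRaWT on log2(normalised count + 1), as are all fold changes below, given ± SE. Where a named call was lost in 5 or more of the 20 alternative analyses, the number is given beside it.

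Most called changes were of medium size. Of the 81 higher genes, 25 had a log2 fold change under 1, 30 from 1 to 1.5, and 26 over 1.5. Of the 25 lower genes 12 fell by under 1, 12 by 1 to 1.5, and Gng12 by 2.96. The reach of the test depended on level: when the tested genes were divided into 4 equal classes by mean level, in the lowest class, up to a mean of 21.3 counts, the only call was Sostdc1 with a difference of 3.74, while in the highest class, from a mean of 157 counts, 50 higher and 20 lower genes were called with differences down to 0.47. The median SE fell from 1.00 in the lowest class to 0.21 in the highest. The count of calls was 56 without TRaGS replicate 3, 61 without TRaGS replicate 4 and 42 with TRaGS replicates 1 and 2 as the only TRaGS libraries, the animals whose numbers in the titles lie nearest to those of the TRaWT animals. Calls of lower genes numbered 15 without TRaGS replicate 3 or TRaWT replicate 2, 12 without TRaWT replicate 3 and 13 without TRaWT replicate 4.

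**Figure D1:**
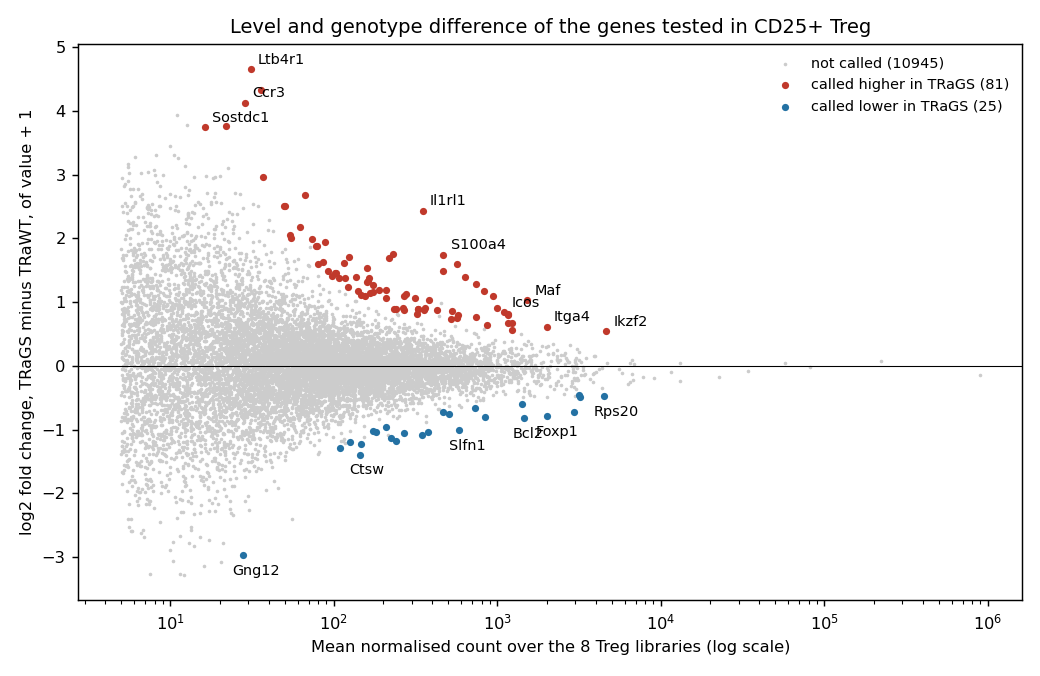
Each point is 1 of the 11051 tested genes, with its mean normalised count over 8 Treg libraries on a log axis and its log2 fold change (TRaGS minus TRaWT); coloured points are the 81 genes called higher and the 25 called lower. Small differences are called only among highly expressed genes, and the called genes under a mean of 21.3 counts are limited to Sostdc1.

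The genes that define the sorted cells were read in every library. Values here and below are normalised counts in the order of replicates 1 to 4. Foxp3 stood at 1069, 1214, 1198 and 1177 in TRaWT and at 1114, 893, 1289 and 1330.0 in TRaGS. For Il2ra the TRaWT libraries gave 1525, 1424, 1699 and 1351 and the TRaGS libraries 1153, 1370.0, 1034 and 1009. Foxp3 overlapped between the genotypes (-0.03 ± 0.14, adjusted p = 0.981), and in Il2ra, which encodes CD25, 1 TRaGS library lay within the TRaWT range (-0.40 ± 0.14, adjusted p = 0.271). Cd4 was read at 735, 754, 713 and 743 in TRaWT against 881, 921, 1028 and 813 in TRaGS. Tnfrsf18 gave 579, 528, 500.3 and 464 in the TRaWT libraries and 731, 850.2, 712 and 766 in the TRaGS libraries. In Cd4 and in Tnfrsf18, the costimulatory receptor GITR, every TRaGS value was above every TRaWT value, but neither passed (adjusted p = 0.528 and 0.0774). Cd3e, a subunit of the T cell receptor complex, stood at 1016 ± 96.2 in TRaWT and 1009.8 ± 173 in TRaGS (SD, n = 4 each), and Ctla4, an inhibitory receptor, at 243 ± 72.3 in TRaWT and 266 ± 131 in TRaGS (SD, n = 4 each); both overlapped. Ikzf2 stood at 4390.5, 3439.5, 3582 and 3594 in TRaWT and at 4577, 5353, 6096 and 5838 in TRaGS. Ikzf2 encodes Helios, a factor of thymus-derived Treg, and it rose (0.54 ± 0.12, adjusted p = 0.0140), though its call was lost in 6 of 20 alternative analyses. The 7 Treg markers were all detected in every library, and their summed level was 8499 to 9466 in TRaWT and 9678 to 11602 in TRaGS. Most of that gap came from Ikzf2, whose mean was 3751 in TRaWT and 5466 in TRaGS.

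Thra itself was read in every library. For Thra the TRaWT libraries gave 136, 153, 119 and 123.2 and the TRaGS libraries 122.9, 88.9, 116 and 211. The genotypes overlapped (-0.05 ± 0.28, adjusted p = 0.981), TRaGS replicates 2 and 4 being the lowest and highest of the 8 libraries. Counts of 3′ ends do not show a change in the DNA-binding part of the receptor, so this level is no test of the genotype labels. Thrb, the related receptor, was low, at 4.78 ± 2.98 in TRaWT and 13.5 ± 12.2 in TRaGS (SD, n = 4 each). Of the list of thyroid pathway genes 23 were tested and none was called, beside 0.959% of all tested genes. Their median log2 fold change was 0.01. Its member with the smallest p was Gps2, a corepressor subunit, at -0.50 (adjusted p = 0.278).

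Of 30 tested transcription factors of effector Treg 5 rose in TRaGS (16.7%, beside 0.733% of all tested genes) and none fell. The median was 0.54 beside 0.0057 for all genes, and over the alternatives 2 to 7 members were called. Rora was read at 482, 296, 469 and 502 in TRaWT against 1015, 1174, 1061 and 922 in TRaGS. Rora, an orphan nuclear receptor of tissue Treg and helper cells, rose without overlap (1.28 ± 0.17, adjusted p = 4.17e-06). Maf gave 1148, 861, 1248 and 792 in the TRaWT libraries and 1922, 2188, 1922 and 2096 in the TRaGS libraries. Prdm1 stood at 72.3, 31.2, 79.3 and 48.1 in TRaWT and at 188, 117, 172 and 212 in TRaGS. Maf, which supports interleukin-10 production, and Prdm1, which encodes Blimp-1, rose as well (1.03 ± 0.14 and 1.62 ± 0.33, adjusted p = 1.30e-05 and 0.00571), each with all TRaGS libraries above all TRaWT libraries. For Gata3 the TRaWT libraries gave 947, 673, 973 and 971 and the TRaGS libraries 1256, 1273, 1747 and 1396. Gata3, the regulator of type 2 helper cells that Treg also use, was lowest in TRaWT replicate 2 and highest in TRaGS replicate 3 (0.67 ± 0.15, adjusted p = 0.0115). The remaining 25 members did not pass. Among them, named here after their values were seen, Runx2 and Hif1a were without overlap on the higher side (1.83 and 0.63), and Bach2, Ikzf3 and Myb on the lower side (-0.43, -0.44 and -0.74).

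The surface receptor list of effector Treg held the most calls, 8 higher (33.3%, beside 0.733% of all tested genes) and none lower of 24 tested. Of the 24 genes 18 had positive and 6 negative values, with a median of 0.70 and 5 to 10 calls over the alternatives. Il1rl1 was read at 154, 155, 106 and 45.8 in TRaWT against 653, 677, 642 and 362 in TRaGS. Il1rl1 encodes ST2, the receptor of the tissue alarm signal interleukin-33. It rose in all TRaGS libraries (2.44 ± 0.27, adjusted p = 9.14e-08), with TRaGS replicate 4 the lowest of its group and TRaWT replicate 4 the lowest of all. Il18r1 gave 331, 203, 216 and 261 in the TRaWT libraries and 473, 601, 439 and 525 in the TRaGS libraries. Il18rap stood at 25.5, 5.03, 23.3 and 24.6 in TRaWT and at 115, 113, 91.5 and 136 in TRaGS. These genes encode the 2 chains of the interleukin-18 receptor, and both rose without overlap (1.03 ± 0.19 and 2.68 ± 0.49, adjusted p = 0.00205 and 0.00135). TRaWT replicate 2 was the lowest library for both chains.

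For Klrg1 the TRaWT libraries gave 346, 228, 239 and 176 and the TRaGS libraries 669, 829.9, 697 and 543. Klrg1, a receptor of differentiated lymphocytes, was higher in every TRaGS library (1.49 ± 0.20, adjusted p = 4.17e-06). Icos was read at 801, 726, 1072 and 576 in TRaWT against 1150.2, 1204, 1771 and 1514 in TRaGS. Tnfrsf1b gave 277, 347, 324 and 248 in the TRaWT libraries and 578, 605, 469.6 and 545 in the TRaGS libraries. Nrp1 stood at 904, 872, 879 and 704 in TRaWT and at 1238, 1663, 1501 and 1483 in TRaGS. Icos, a costimulatory receptor, Tnfrsf1b, a TNF receptor, and Nrp1, a semaphorin receptor of thymus-derived Treg, rose by 0.84 ± 0.16, 0.88 ± 0.18 and 0.81 ± 0.14 (adjusted p = 0.00279, 0.00571 and 0.000999), none with overlap. For Itgae the TRaWT libraries gave 115, 72.4, 44.3 and 41.1 and the TRaGS libraries 170.2, 189, 182 and 126. Itgae, the alpha chain of the epithelium-binding integrin CD103, rose too (1.38 ± 0.33, adjusted p = 0.0194), a call lost in 7 of 20 alternatives. Of the wider TNF receptor superfamily, Tnfrsf1b was the only called gene among 21 tested members (4.76%, beside 0.959% of all tested genes). The sign of that list's median (0.19) turned with DESeq2 and edgeR. In the Treg core list 2 of 19 members rose, Nrp1 and Ikzf2 (10.5%, beside 0.733% of all tested genes). The median was -0.03, and 8 members were positive and 11 negative.

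**Figure D2:**
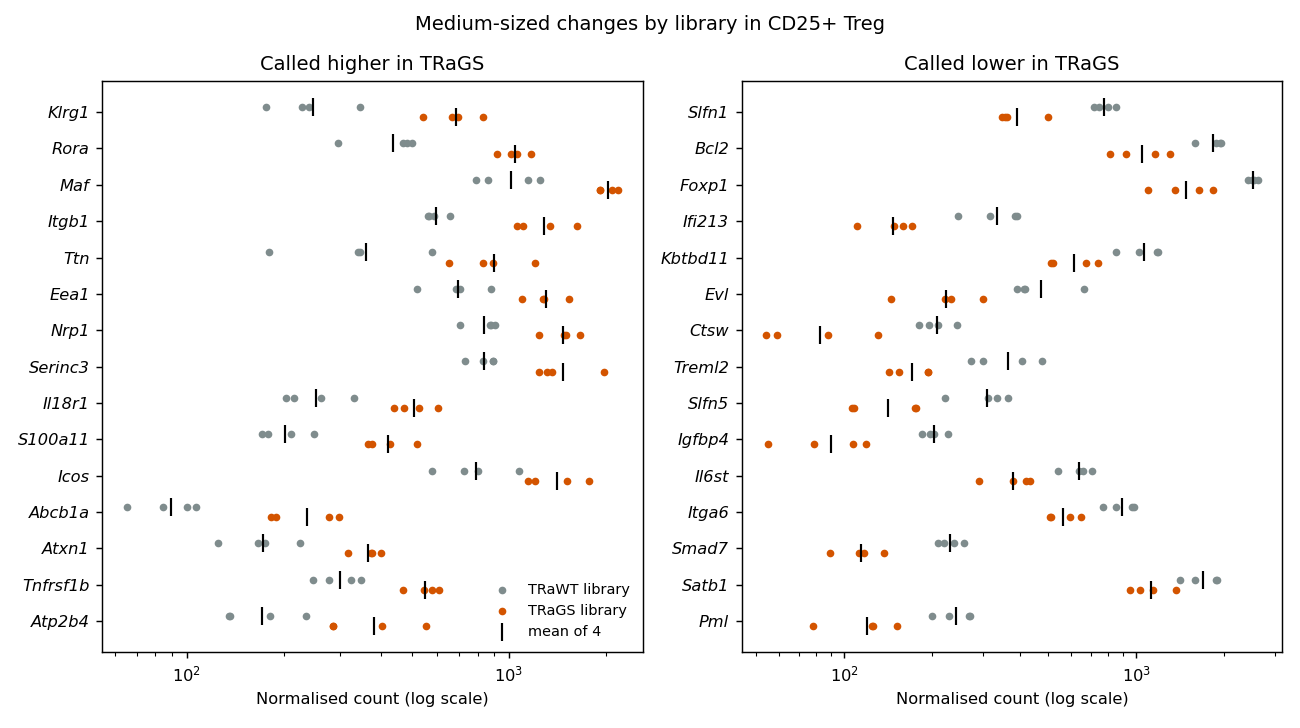
Normalised counts (log axis) of the 15 genes called higher and the 15 called lower with the smallest adjusted p among those with an absolute log2 fold change of at most 1.5, a mean of at least 20 and no overlap. Grey points are the 4 TRaWT libraries, orange points the 4 TRaGS libraries and black ticks their means; in every row the 2 sets of points are separate.

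Among secreted molecules 3 of 19 tested rose and 1 fell (21.1% called, beside 0.959% of all tested genes). Penk was read at 224, 69.4, 127 and 45.8 in TRaWT against 365, 273, 277 and 366 in TRaGS. Csf1 gave 18.9, 29.2, 12.8 and 24.6 in the TRaWT libraries and 59.8, 89.6, 113 and 87.0 in the TRaGS libraries. Penk, which encodes the precursor of enkephalin peptides, and Csf1, a growth factor of macrophages, rose without overlap (1.69 ± 0.30 and 2.00 ± 0.47, adjusted p = 0.000999 and 0.0199). Lgals1 stood at 329, 209, 209 and 254 in TRaWT and at 608, 503, 482 and 308 in TRaGS. Lgals1, encoding galectin-1, rose with overlap, TRaGS replicate 4 lying within the TRaWT range (0.91 ± 0.21, adjusted p = 0.0150, lost in 5 of 20 alternatives). For Lta the TRaWT libraries gave 125, 209, 176 and 191 and the TRaGS libraries 66.4, 99.0, 62.5 and 76.1. Lta, encoding lymphotoxin alpha, fell (-1.19 ± 0.29, adjusted p = 0.0262), a call lost in 8 of 20 alternatives. The list's median was 0.91, and its other 15 members did not pass.

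Of 12 tested chemokine receptor genes 5 rose (41.7%, beside 0.733% of all tested genes) and none fell. The list's median was 0.80, with 1 to 5 calls over the alternatives. Ccr2 was read at 92.9, 80.5, 105 and 139 in TRaWT against 314, 508, 305 and 294 in TRaGS. Ccr2, the receptor that guides cells to inflamed tissue, was highest in TRaGS replicate 2 and separate between genotypes (1.75 ± 0.25, adjusted p = 1.30e-05). Ccr3 gave 2.47, 0, 15.2 and 0 in the TRaWT libraries and 68.9, 86.8, 29.0 and 27.2 in the TRaGS libraries. Ltb4r1 stood at 0.822, 1.01, 0 and 2.35 in TRaWT and at 51.5, 94.7, 10.04 and 87.0 in TRaGS. Ccr3, an eotaxin receptor, and the leukotriene receptor gene Ltb4r1 were at most 15.2 and 2.35 counts in TRaWT and were read in every TRaGS library (4.12 ± 0.91 and 4.65 ± 0.94, adjusted p = 0.0111 and 0.00416). TRaGS replicate 3 had the lowest Ltb4r1 value of its group. With TRaWT means of 4.41 and 1.04, both genes passed the filter of a mean of 5 only through TRaGS. Such genes could be tested only as higher ones, so they give no support to the shares of called members that count them. The size of their differences also rests on the 1 added to counts near 0. For Ccr4 the TRaWT libraries gave 98.6, 23.1, 49.0 and 68.1 and the TRaGS libraries 162, 153, 135 and 137. Cxcr3 was read at 37.8, 50.3, 54.8 and 69.3 in TRaWT against 96.3, 148, 189 and 138 in TRaGS. Ccr4 and Cxcr3, receptors of skin-homing and of type 1 effector cells, also rose (1.46 and 1.40, adjusted p = 0.0262 and 0.0229). The calls of Ccr3, Ccr4 and Cxcr3 were lost in 5, 8 and 5 of 20 alternatives. Ccr6 rose from 139.7 ± 65.4 to 276 ± 74.0 (SD, n = 4 each) with overlapping genotypes (1.07 ± 0.28, adjusted p = 0.0447), and its call was lost in 14 of 20 alternatives. Ltb4r1 was the only call among 22 tested receptors for lipids and purines (4.55%, beside 0.959% of all tested genes), whose median was 0.21.

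Integrin genes changed in both directions, 4 higher and 1 lower of 23 tested adhesion genes (21.7% called, beside 0.959% of all tested genes). The median was 0.33. Itgb1 gave 561, 588, 658 and 567 in the TRaWT libraries and 1109, 1058, 1631 and 1339 in the TRaGS libraries. Itga4 stood at 1731, 1661, 1502 and 1439 in TRaWT and at 2186, 2684, 2357 and 2448 in TRaGS. Itgb1 and Itga4, which together form the fibronectin- and VCAM-1-binding integrin VLA-4, rose in every TRaGS library (1.09 ± 0.15 and 0.61 ± 0.13, adjusted p = 1.30e-05 and 0.00669). For Itga2 the TRaWT libraries gave 4.11, 0, 1.17 and 4.70 and the TRaGS libraries 51.5, 33.3, 17.8 and 62.0. Itga2, the collagen-binding alpha chain, was at most 4.70 counts in TRaWT and at least 17.8 in TRaGS (3.76 ± 0.89, adjusted p = 0.0207), and its call was lost in 7 of 20 alternatives. With a TRaWT mean of 2.49, it passed the filter of a mean of 5 only through TRaGS. Itga2 could thus be tested only as a higher gene, and its call gives no support to the list's count. Itga6 was read at 983, 769, 965 and 852 in TRaWT against 648, 505, 512 and 592 in TRaGS. Itga6, the laminin-binding alpha chain, fell without overlap (-0.66 ± 0.16, adjusted p = 0.0199, lost in 5 of 20 alternatives).

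Of 14 tested genes of S100 proteins, annexins and galectins 5 rose (35.7%, beside 0.733% of all tested genes) and none fell. The 5 were 4 S100 genes and Lgals1, and the list had a median of 0.51 and 3 to 5 calls over the alternatives. S100a4 gave 243, 224, 161 and 234 in the TRaWT libraries and 745, 670.2, 766 and 687 in the TRaGS libraries. S100a6 stood at 295, 217, 366 and 242 in TRaWT and at 766, 1182, 837 and 648 in TRaGS. S100a4 and S100a6 encode small calcium-binding proteins that bind the cytoskeleton, and in both every TRaGS library exceeded every TRaWT library (1.75 ± 0.18 and 1.60 ± 0.19, adjusted p = 4.83e-08 and 4.08e-07). For S100a11 the TRaWT libraries gave 211, 171, 248 and 178 and the TRaGS libraries 365, 519.8, 428 and 376. S100a10 was read at 588, 651, 818 and 610.4 in TRaWT against 967, 1485, 973 and 822 in TRaGS. S100a11 and S100a10, partners of annexins, rose by 1.06 ± 0.20 and 0.65 ± 0.16 (adjusted p = 0.00254 and 0.0374), and the call of S100a10 was lost in 9 of 20 alternatives. Of the cytoskeleton list 3 of 41 were called (7.32%, beside 0.959% of all tested genes). Vim, the intermediate filament vimentin (0.56, lost in 8 of 20 alternatives), and Tagln2, an actin-binding protein (0.76), rose, and Evl fell. Evl gave 412, 391, 664 and 418 in the TRaWT libraries and 232, 145, 221 and 298 in the TRaGS libraries. Evl encodes an Ena/VASP protein that extends actin filaments, and TRaWT replicate 3 was its highest library (-1.08 ± 0.22, adjusted p = 0.00376). The median of this list was 0.06.

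Of 25 tested genes of naive and resting T cells 3 fell (12%, beside 0.226% of all tested genes) and none rose. Negative values were held by 23 of the 25, beside 5474 of 11051 over all genes. Without overlap on the lower side lay 11 of them, beside 246 of 11051. The median was -0.34, with 1 to 4 calls over the alternatives. Foxp1 stood at 2494, 2612, 2412 and 2532 in TRaWT and at 1642, 1839, 1356 and 1099 in TRaGS. For Satb1 the TRaWT libraries gave 1413, 1876, 1591 and 1889.8 and the TRaGS libraries 1369, 1147, 1027 and 956. The exons of both overlap a little-described gene on the same strand. Foxp1, a quiescence factor, and Satb1, a chromatin organiser needed early in Treg development, fell in every TRaGS library (-0.79 ± 0.14 and -0.59 ± 0.14, adjusted p = 0.000999 and 0.0231), with the call of Satb1 lost in 7 of 20 alternatives. Igfbp4 was read at 204, 226, 197 and 184 in TRaWT against 107, 54.9, 79.2 and 119 in TRaGS. Igfbp4, which encodes a binding protein of insulin-like growth factors, fell as well (-1.22 ± 0.28, adjusted p = 0.0147). Igfbp4 lies at chromosome 11, 99041244 to 99054392 (GRCm38), close to Thra at 98740638 to 98769006, and was the only call among 155 tested genes within 5 Mb of Thra, whose median was -0.03. Position near the modified locus and membership of the resting list cannot be told apart for this gene.

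Signalling genes with lower values belonged to several pathways. Bcl2 gave 1871, 1952, 1586 and 1938 in the TRaWT libraries and 1306, 1162, 811 and 922 in the TRaGS libraries. Bcl2, the anti-apoptotic regulator, fell with the 2 genotypes separate (-0.83 ± 0.15, adjusted p = 0.000999). Il6st stood at 540.0, 658, 706 and 639.7 in TRaWT and at 379, 289.9, 432 and 419 in TRaGS. For Smad7 the TRaWT libraries gave 238, 257, 220.4 and 210.1 and the TRaGS libraries 112, 89.6, 137 and 117. Il6st, encoding the gp130 chain shared by receptors of the interleukin-6 family, and Smad7, an inhibitor of TGF-beta signalling, fell (-0.75 ± 0.17 and -1.03 ± 0.25, adjusted p = 0.0166 and 0.0229; Smad7 lost in 6 of 20 alternatives). Each was the only call in its list, of 31 Jak, Stat and cytokine receptor genes (3.23%) and of 25 TGF-beta genes (4%). Over all tested genes 0.959% were called. In the apoptosis list Bcl2 and Casp1 were the 2 calls of 28 (7.14%, beside 0.959% of all tested genes), in opposite directions, with a median of 0.00. Casp1 was read at 36.2, 47.3, 24.5 and 25.8 in TRaWT against 84.7, 148, 125 and 136 in TRaGS. Casp1, an inflammatory caspase, rose (1.87 ± 0.39, adjusted p = 0.00608), and so did the related Casp4 (1.40 ± 0.32, lost in 6 of 20 alternatives), in which TRaWT replicate 3 lay within the TRaGS range. Jun gave 409, 273, 430.4 and 885 in the TRaWT libraries and 172, 142, 489 and 201 in the TRaGS libraries. Jun, a subunit of the AP-1 transcription factor, fell with overlap, TRaGS replicate 3 holding 489 against 142 to 201 in the other 3 TRaGS libraries (adjusted p = 0.0496, lost in 13 of 20 alternatives). It was the only call of 31 immediate early genes (3.23%, beside 0.959% of all tested genes).

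In the list of interferon-stimulated genes 39 of 51 tested members were negative, beside 5474 of 11051 over all genes. Among them 2 fell (3.92%, beside 0.226% of all tested genes) and none rose. The median was -0.25, with 1 to 3 calls over the alternatives. Ifi213 stood at 385, 246, 391 and 316 in TRaWT and at 110.5, 159, 171 and 148 in TRaGS. For Pml the TRaWT libraries gave 201, 229, 271 and 268 and the TRaGS libraries 152, 124, 78.1 and 126. Ifi213, a member of the interferon-inducible p200 family, and Pml, the scaffold of nuclear bodies, fell in all TRaGS libraries (-1.17 ± 0.23 and -1.03 ± 0.25, adjusted p = 0.00279 and 0.0251; Pml lost in 7 of 20 alternatives). Slfn1 was read at 717, 799.8, 746 and 851 in TRaWT against 348, 498, 355 and 362 in TRaGS. Slfn5 gave 312, 363, 334 and 222 in the TRaWT libraries and 174, 108, 176 and 107 in the TRaGS libraries. Slfn1 and Slfn5 belong to the Schlafen family, linked to T cell quiescence, and both fell (-1.01 ± 0.17 and -1.13 ± 0.24, adjusted p = 0.000407 and 0.00693). These were the 2 calls among 14 Schlafen and Gimap genes (14.3%, beside 0.226% of all tested genes called lower), whose median was -0.02. The p200 and Schlafen families hold closely related copies, and how reads shared by copies were counted is not given in the sources used here.

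Cytosolic ribosomal protein genes were called in 5 of 72 cases (6.94%), all lower, beside 0.226% of all tested genes. Their values were negative in 60 cases, with a median of -0.31. Rps20 stood at 4942, 4979, 5212 and 5721 in TRaWT and at 3662, 4012, 3408 and 3993 in TRaGS. Rps20 had a small difference without overlap (-0.47 ± 0.12, adjusted p = 0.0335), as did Rpl8 and Rps15 (-0.49 and -0.72), while Rps14 overlapped (-0.73). The calls were 0 to 6 over the alternatives: Rps20 and Rpl8 each lost theirs in 10 of 20, Rps15 in 16 and Rps14 in 5. Many processed pseudogenes resemble these mRNAs, which makes single members uncertain. Energy genes stayed below the threshold: the medians were -0.13 in 75 nuclear-encoded respiratory chain genes, -0.17 in 7 mitochondrially encoded mRNAs and -0.13 in 23 glycolysis genes. None of the 3 lists held a call, beside 0.959% of all tested genes called.

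**Figure D3:**
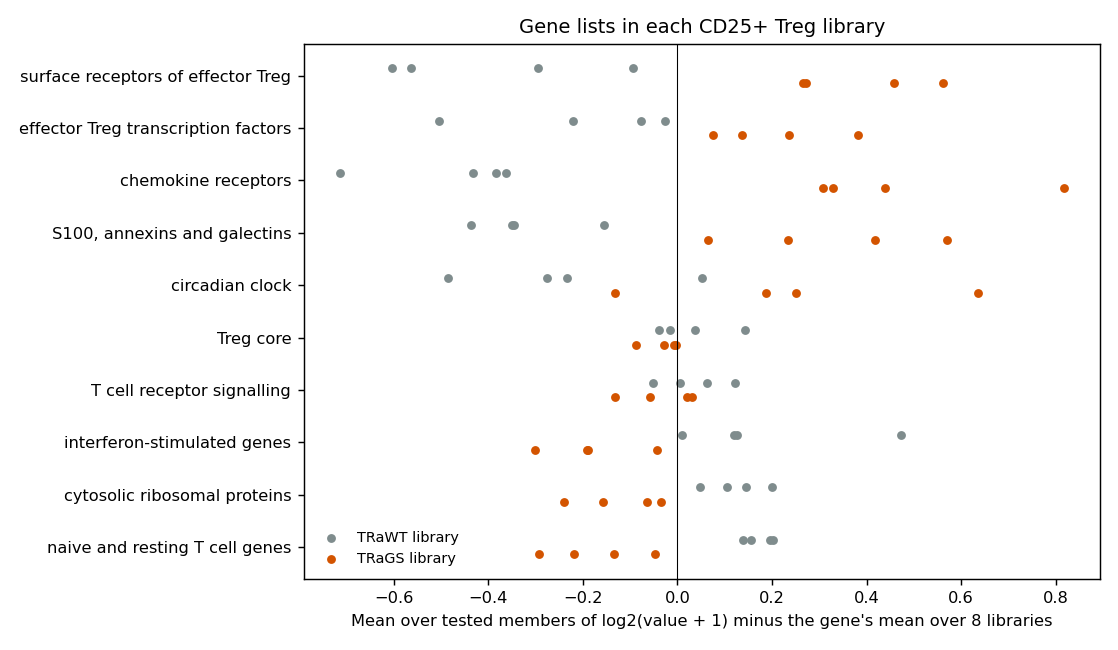
Each point is the mean over the tested members of a list of log2(value + 1) after subtracting each gene's mean over the 8 Treg libraries, for 4 TRaWT (grey) and 4 TRaGS (orange) libraries. The effector receptor list stood at -0.60 to -0.09 in TRaWT and 0.26 to 0.56 in TRaGS and the resting list at 0.14 to 0.20 and -0.29 to -0.05, while the circadian, Treg core and T cell receptor lists overlapped.

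Lysosomal genes gave 3 higher and 1 lower call of 46 tested (8.70%, beside 0.959% of all tested genes), with a median of 0.12. For Atp6v0d2 the TRaWT libraries gave 2.47, 10.1, 0 and 2.35 and the TRaGS libraries 47.3, 71.6, 81.4 and 71.8. Atp6v0d2, an isoform of a vacuolar ATPase subunit, was at 0 to 10.1 in TRaWT and far above that in each TRaGS library (4.33 ± 0.79, adjusted p = 0.00134). With a TRaWT mean of 3.72, it passed the filter of a mean of 5 only through TRaGS. Atp6v0d2 could thus be tested only as a higher gene, and its call gives no support to the list's count. Tfe3 was read at 95.3, 82.5, 61.8 and 81.0 in TRaWT against 169, 314, 288 and 184 in TRaGS. Ctsb gave 142, 198, 171 and 161 in the TRaWT libraries and 282, 376, 288 and 309 in the TRaGS libraries. Tfe3, a transcription factor of lysosome biogenesis, and Ctsb, the protease cathepsin B, rose (1.53 ± 0.28 and 0.90 ± 0.22, adjusted p = 0.00127 and 0.0236; Ctsb lost in 7 of 20 alternatives). Ctsw stood at 180.0, 196, 209.9 and 244 in TRaWT and at 88.0, 54.2, 59.1 and 130.5 in TRaGS. Ctsw, the cathepsin of cytotoxic lymphocytes, fell (-1.39 ± 0.29, adjusted p = 0.00608); its exons overlap those of Fibp on the other strand, which had a mean of 70.5 and a log2 fold change of -0.49. Of 32 tested G protein genes 6.25% were called, beside 0.959% of all tested genes. Gna15 rose (2.05 ± 0.54, adjusted p = 0.0496) and Gng12, a gamma subunit, fell (-2.96 ± 0.72, adjusted p = 0.0251). For Gng12 the TRaWT libraries gave 32.9, 73.4, 49.0 and 42.3 and the TRaGS libraries 3.32, 5.06, 3.35 and 11.96. The calls of Gna15 and Gng12 were lost in 14 and 8 of 20 alternatives.

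Of 36 tested cell cycle genes 3 rose (8.33%, beside 0.733% of all tested genes), with a median of 0.19. Mki67 was read at 104, 84.5, 189 and 29.3 in TRaWT against 209, 327, 187 and 148 in TRaGS. Mki67, the proliferation marker Ki-67, varied widely, and TRaWT replicate 3 reached the TRaGS range (1.31 ± 0.35, adjusted p = 0.0496, lost in 13 of 20 alternatives). Cdc25b gave 182, 157, 182 and 203 in the TRaWT libraries and 364, 459.8, 317 and 252 in the TRaGS libraries. Rbl2 stood at 341, 426, 419 and 378 in TRaWT and at 547, 735, 612 and 705 in TRaGS. Cdc25b, a phosphatase that drives entry into mitosis, and Rbl2, a retinoblastoma relative that restrains the cycle, both rose without overlap (0.91 ± 0.22 and 0.73 ± 0.17, adjusted p = 0.0213 and 0.0175), calls lost in 5 and 6 of 20 alternatives. The 2 genes act in opposite ways in the cycle. The cell cycle list had 0 to 3 calls over the alternatives.

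Outside every list stood 44 of the called genes, grouped here by textbook function after their values were known. Several of their products take part in endosome or membrane traffic. For Eea1 the TRaWT libraries gave 880.2, 686, 706 and 519 and the TRaGS libraries 1101, 1285, 1279 and 1539. Serinc3 was read at 891, 892, 834 and 732 in TRaWT against 1363, 1978, 1241 and 1317 in TRaGS. Eea1, a tether of early endosomes, and Serinc3, a multipass membrane protein, rose without overlap (0.91 ± 0.16 and 0.79 ± 0.15, adjusted p = 0.000681 and 0.00201). The others were Syt11 (0.80), Vps54 (0.89), Vmp1 (1.17), Hip1 (1.98), Ehd4 (2.17), Osbpl3 (1.17) and the palmitoyltransferase gene Zdhhc2 (1.46). Ehd4 and Osbpl3 overlapped between the genotypes, and the exons of Zdhhc2 overlap those of Cnot7. Hip1, which links clathrin to actin, lost its call in 6 of 20 alternatives, Vmp1 in 7, Vps54 in 8, Osbpl3 in 12 and Ehd4 in 14.

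Among the called genes outside the lists were some of structural and cytoskeletal proteins. In the cytoskeleton list itself 3 of 41 were called (7.32%, beside 0.959% of all tested genes). Ttn gave 579, 346, 181 and 339 in the TRaWT libraries and 834, 654, 893 and 1206 in the TRaGS libraries. Neb stood at 993, 328, 374 and 454 in TRaWT and at 1112, 775, 1127 and 1455 in TRaGS. Ttn and Neb, known as the giant sarcomere proteins titin and nebulin, were read in every library. Ttn rose without overlap (1.39 ± 0.22, adjusted p = 0.000108), and Neb rose although TRaWT replicate 1 reached the TRaGS range (1.17 ± 0.21, adjusted p = 0.00127). The nuclear envelope spectrin Syne2 rose by 1.87 ± 0.42 and the neuron navigator Nav2 by 1.33 ± 0.28. Microtubule and centrosome genes Mapre2 (1.11), Dynlt3 (1.15), Cep290 (1.49) and Cntln (1.95) rose as well, the last with overlap; Mapre2 and Cntln lost their calls in 7 and 8 of 20 alternatives. Genes of cell contacts and lamellipodia were Cldnd1 (1.27), Cd82 (0.88) and Raph1 (1.38); their calls were lost in 10, 9 and 12 of 20 alternatives.

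Further genes without a list had roles in signalling, transport and gene regulation. For Abcb1a the TRaWT libraries gave 107, 100.6, 65.3 and 84.5 and the TRaGS libraries 183, 189, 277 and 297. Atxn1 was read at 224, 175, 167 and 126 in TRaWT against 373, 316, 376 and 400.2 in TRaGS. Atp2b4 gave 182, 136, 234 and 136 in the TRaWT libraries and 286, 554, 404 and 284 in the TRaGS libraries. Abcb1a, the drug efflux pump P-glycoprotein, Atxn1, a transcriptional repressor, and Atp2b4, a plasma membrane calcium pump of the ion channel list, rose by 1.39 ± 0.27, 1.10 ± 0.22 and 1.13 ± 0.23 (adjusted p = 0.00279, 0.00294 and 0.00582), none with overlap. Plcb4, a phospholipase C, rose by 1.19, the ubiquitin ligase gene Rnf125 by 0.88, the adaptor gene Samsn1 by 0.89, the sulfotransferase gene Chst2 by 1.63, the acyl-CoA synthetase gene Acsbg1 by 1.24 and the elongin subunit gene Eloa by 0.82; Samsn1, Acsbg1 and Eloa each lost their call in 5 of 20 alternatives. Nrn1, which encodes neuritin, went from 58.3 ± 17.0 to 190.4 ± 45.8 (SD, n = 4 each) (1.71 ± 0.31, adjusted p = 0.00134). The noncoding or little-described transcripts AU020206 (0.75) and AW112010 (0.87) rose, the latter with overlap and lost in 5 of 20 alternatives. Zcchc18, Ttc39c, Fam129a, Tmem154, Nhsl2 and Endod1 rose by 2.51, 2.50, 1.19, 0.90, 2.97 and 1.09; the calls of Tmem154, Nhsl2 and Endod1 were lost in 5, 12 and 16 of 20 alternatives.

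The lower genes without a list were few. Kbtbd11 stood at 856, 1186, 1024 and 1181 in TRaWT and at 739.9, 513, 675 and 519.8 in TRaGS. For Treml2 the TRaWT libraries gave 298, 406, 273 and 477 and the TRaGS libraries 193, 194, 154 and 142. Kbtbd11, a BTB and kelch domain protein, and Treml2, a TREM-like surface receptor, fell in every TRaGS library (-0.80 ± 0.16 and -1.06 ± 0.22, adjusted p = 0.00376 and 0.00608). C230085N15Rik fell by 0.96 on the log2 scale, a call lost in 9 of 20 alternatives; it lies within the span of Satb1 on the same strand, a gene that fell too. Prg4 was read at 204, 149.9, 169 and 99.8 in TRaWT against 40.7, 60.00, 64.7 and 88.1 in TRaGS. Prg4, the gene of a lubricating proteoglycan, fell too (-1.29 ± 0.33, adjusted p = 0.0342, lost in 8 of 20 alternatives). Its exons overlap those of Tpr on the other strand, which had a mean of 3928 counts and a log2 fold change of 0.15, and whether the counting used strand is likewise not given. The same holds for Itga4, Rbl2 and Nrn1, whose exons overlap Cerkl, Aktip and Fars2 with means of 23.6, 36.9 and 19.2 counts.

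**Figure D4:**
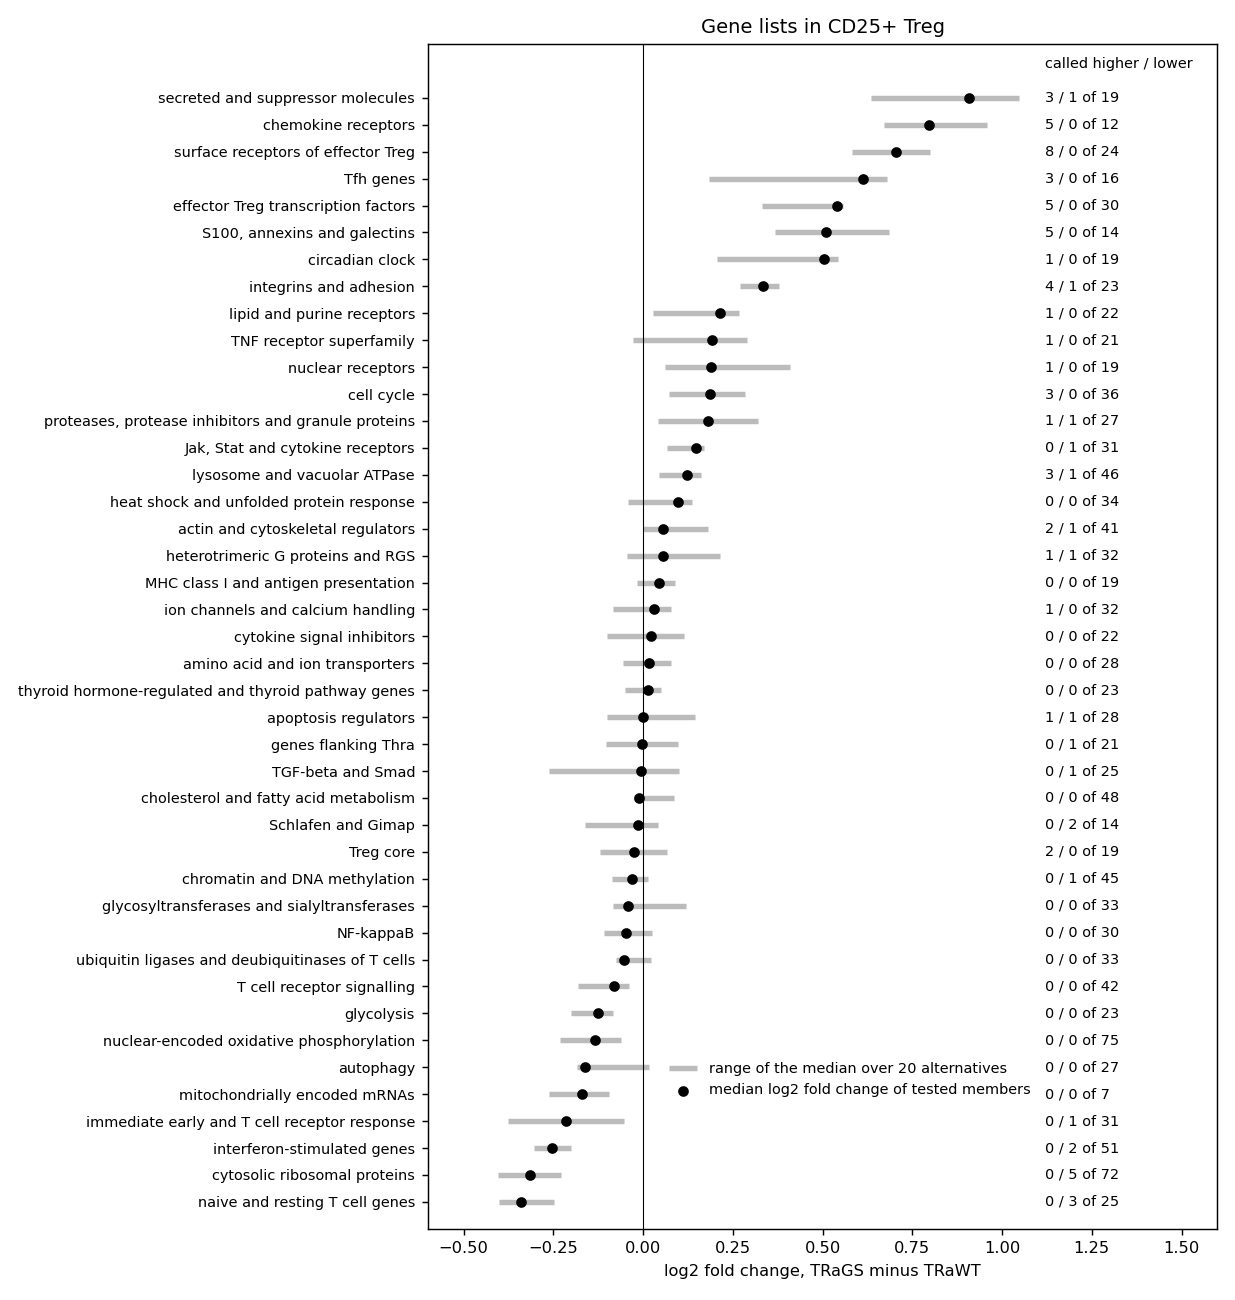
For each gene list shown, 42 of the 43, the black point is the median log2 fold change (TRaGS minus TRaWT) of its tested members, the grey bar the range of that median over 20 alternative analyses, and the figures at the right the members called higher and lower. The lists of secreted molecules, chemokine receptors and effector Treg receptors have the highest medians (0.91, 0.80 and 0.70) and resting T cell, ribosomal and interferon genes the lowest (-0.34, -0.31 and -0.25).

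Of the 43 lists 15 had no called member. Over all tested genes 0.959% were called, so the lack of a call in a list of such a size says little. T cell receptor signalling was among them, with 42 tested genes and a median of -0.08. Prkcq gave 689.6, 916, 734 and 731 in the TRaWT libraries and 577, 597, 453 and 482 in the TRaGS libraries. Dgka stood at 3197, 3159.9, 2623 and 2710.2 in TRaWT and at 2192, 2598, 1852 and 2040.1 in TRaGS. Prkcq, the kinase PKC-theta, and Dgka, a diacylglycerol kinase, had the smallest p of that list and no overlap, with differences of -0.54 and -0.43 that did not pass (adjusted p = 0.119 and 0.119). NF-kappaB genes (30 tested, median -0.05), cytokine signal inhibitors (22, 0.02), heat shock and unfolded protein genes (34, 0.10), and cholesterol and fatty acid genes (48, -0.01) also gave no call, and the sign of each of these medians turned in some alternatives. The closest single genes were Ripk1 at 0.95, Ptpn2 at -0.68, Atf4 at -0.44 and Dhcr7 at -1.30, with adjusted p from 0.167 to 0.305.

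Autophagy, amino acid and ion transport, glycosyltransferase, ubiquitin ligase and class I antigen presentation lists had no call and medians from -0.16 to 0.05. For Atg5 the TRaWT libraries gave 55.1, 42.3, 57.1 and 36.4 and the TRaGS libraries 106, 113, 129 and 109.8. Atg5, which is needed for autophagosome formation, had no overlap and missed the threshold (1.27 ± 0.35, adjusted p = 0.0736). The circadian clock list had 15 of 19 positive values, beside 5577 of 11051 over all genes, and a median of 0.50. After subtracting each gene's mean, the list stood at -0.48 to 0.05 in the TRaWT libraries and -0.13 to 0.63 in the TRaGS libraries, with overlap. Rora was its only called member (5.26%, beside 0.959% of all tested genes), as it was in the nuclear receptor list (19 tested, median 0.19). In the Tfh list 3 of 16 rose (18.8%, beside 0.733% of all tested genes): Maf, Icos and Sostdc1, a secreted BMP and Wnt antagonist. Sostdc1 was read at 0.822, 1.01, 1.17 and 2.35 in TRaWT against 21.6, 19.5, 37.9 and 45.7 in TRaGS. Sostdc1 was at most 2.35 counts in TRaWT (3.74 ± 0.93, adjusted p = 0.0303, lost in 7 of 20 alternatives). With a TRaWT mean of 1.34, it passed the filter of a mean of 5 only through TRaGS. Sostdc1 could thus be tested only as a higher gene, and its call gives no support to the list's count. In the 45 tested chromatin genes Satb1 was the only call (2.22%, beside 0.959% of all tested genes) and the median was -0.03.

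Markers of other cell types were set beside these results. The 18 B cell markers summed to 1170 to 1740 counts in TRaWT and 2103 to 2629 in TRaGS (p = 0.0286 in a two-sided exact permutation test, which is the lowest p for groups of 4, and 0.229 adjusted over 8 cell types). Ighm gave 792, 1032, 1079 and 877 in the TRaWT libraries and 1150.2, 1789, 1500.2 and 1601 in the TRaGS libraries. Ighm, the immunoglobulin heavy chain mu, was the only called marker (0.67 ± 0.15, adjusted p = 0.0115) and made up most of that sum. Of the 17 tested B cell markers 14 had positive and 3 negative values, with a median of 0.59, beside 5577 positive of 11051 over all genes. Ighm and Cd74 were the 2 without overlap. Cd74 stood at 141 to 196 in TRaWT and 211 to 294 in TRaGS and was not called (0.56 ± 0.22, adjusted p = 0.396). Of the B cell markers 0 were at 0 in all libraries. Cd79a, a defining B cell gene, had at most 1.17 counts in any library. Igkc, the kappa light chain, was at 421 in TRaGS replicate 1 and at 17.5 to 74.4 in the other 7 libraries. The part of B cell RNA in the called genes was not tested. Sums for CD8 T cells (274 to 355 in TRaWT and 298 to 344 in TRaGS), NK cells (9.33 to 19.95 and 12.3 to 22.8) and macrophages and dendritic cells (126 to 186 and 132 to 183) overlapped, as did those of plasma cells (38.2 to 106 and 60.9 to 313), neutrophils, red cells with platelets, and stroma. The macrophage and dendritic cell markers Adgre1 and Clec9a, the neutrophil marker Ly6g and the stromal markers Pdgfra and Cdh5 were at 0 in all 8 libraries.

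The same animals gave the CD25- CD4 cells, and whether the genotype difference was the same there was tested on the Treg minus CD4 value of every animal. Of 9914 genes tested in both, 17 were called (0.171%), 3 with a more positive effect in Treg and 14 with a more negative one. The genotype effect on Ccr2 was 1.75 in Treg and -0.91 in CD4 cells (difference 2.66 ± 0.56, adjusted p = 0.00791). Vim had 0.56 in Treg and -0.78 in CD4 cells (difference 1.34 ± 0.26, adjusted p = 0.00104). For Rora the 2 effects were 1.28 and -0.25 (difference 1.53 ± 0.36, adjusted p = 0.0345). Ccr2, Vim and Rora were thus the called genes whose difference was more positive in Treg. The genotype effect on Bcl2 was -0.83 in Treg and 1.05 in CD4 cells (difference -1.87 ± 0.22, adjusted p = 3.68e-10). The 2 values of Bcl2 had opposite signs, negative in Treg and positive in CD4 cells. Foxp1, Kbtbd11 and Rps14 were the others called in Treg that were also called for this difference, at -0.86, -1.21 and -1.02. The difference call was lost in 6 of 13 alternatives for Rora and for Foxp1, in 2 for Ccr2 and Kbtbd11, and in 1 for Bcl2, Vim and Rps14.

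Myo6 had 0.59 in Treg and 3.31 in CD4 cells (difference -2.72 ± 0.49, adjusted p = 0.000452). For Smc4 the 2 effects were -0.19 and 0.67 (difference -0.86 ± 0.15, adjusted p = 0.000243). The genotype effect on Klf3 was -0.15 in Treg and 0.87 in CD4 cells (difference -1.01 ± 0.18, adjusted p = 0.000452). Myo6, an unconventional myosin, Smc4, a condensin subunit, and Klf3, a transcription factor, were not called in Treg, and their CD4 values were positive. For mt-Nd4 the effects were -0.17 and 0.53, a difference of -0.70. This test drew heavily on the variance trend across genes (prior degrees of freedom 106), so a gene's own spread counted little, and 656 genes had an unadjusted p under 0.05. Without the trend 0 genes were called and 571 had an unadjusted p under 0.05. In all, 7 of the 104 genes called in Treg and tested in both subsets were called for a difference. Of 79 genes called higher in Treg 58 had a positive value in CD4 cells (median 0.30), and of 25 called lower 11 had a negative one (median 0.04), beside a median of -0.01 over all genes there. By the same fit 6 of 10426 genes were called in CD4 cells. Bcl2 was the 1 gene called in both subsets.

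**Figure D5:**
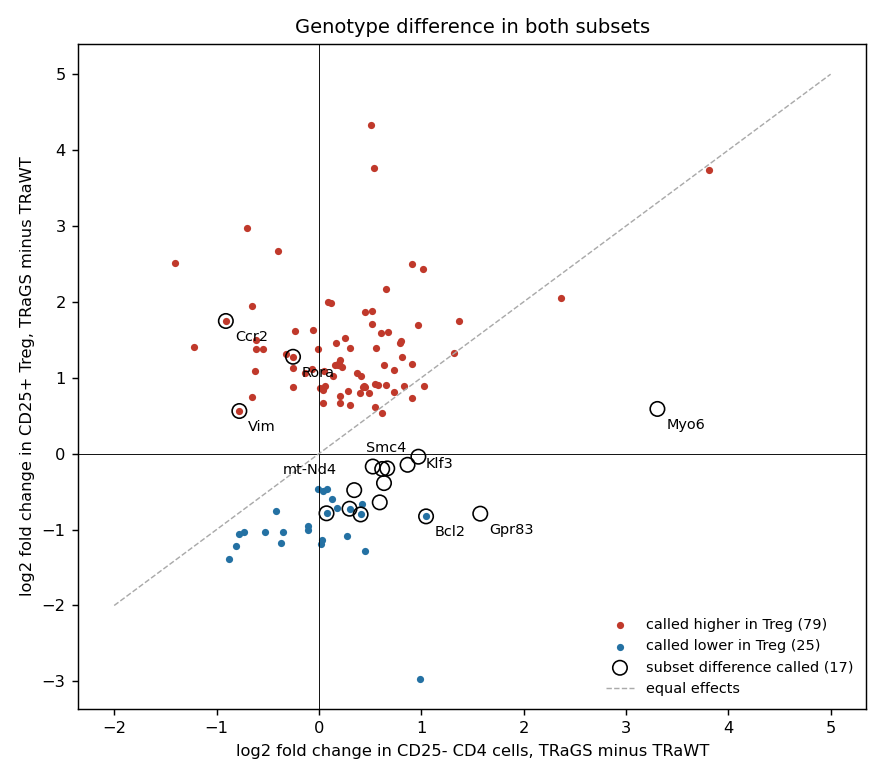
Log2 fold changes (TRaGS minus TRaWT) in CD25- CD4 cells (horizontal) and CD25+ Treg (vertical) of the 104 genes called in Treg and tested in both; circles mark the 17 genes, called in Treg or not, whose difference between subsets was called, and the dashed line marks equal effects. Ccr2, Vim and Rora lie on the left and high, Bcl2 and Gpr83 on the right and low, and Myo6 far to the right at 3.31 in CD4 cells.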

How the data were processed

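RNA of CD25+ Treg and CD25- CD4 T cells was measured in 8 libraries each, 4 per genotype, made with a forward-stranded 3′ mRNA kit per the labels' protocols. The deposited values are a signal: read counts per gene that the authors divided by 1 factor per library, each subset's table by itself. Division by a library's smallest value above 0, taken as 1 read, gave whole numbers for all values within a tolerance of 0.001. Reads could thus be recovered, and the factors equal median-of-ratios size factors. The genome build was GRCm38, per the submitters' processing notes; the sources used here do not give the aligner, the counter or its strand setting. Of 47643 gene identifiers 47224 matched a symbol.

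Genes with a mean of at least 5 over the 8 Treg libraries were tested with limma 3.58.1 in R 4.3.3 on log2(value + 1), with its variance trend, p-values adjusted by Benjamini-Hochberg over all of them, and called at an adjusted p under 0.05. For the subset difference, limma was fitted to the Treg minus CD4 values of the 8 animals. The code was tested on simulated data. Alternatives on the recovered reads used edgeR 4.0.16 and DESeq2 1.42.0, and 20 alternatives were run. Genes named were the 15 higher and 15 lower medium-sized calls with the smallest adjusted p, in each list at most 6 called members or, with none called, the 2 with the smallest p, 9 marker and receptor genes, called genes outside the lists, and up to 5 subset differences per direction. The gene lists, the markers and the comparison were chosen with earlier results of these data known, so they are a description and no independent support. Some genes and 1 gene list that the rule takes in are not reported here.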

Additional observations from a re-analysis of the deposited data

Results flagged for a closer look

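In 250 groups of 4 values, for 125 genes in each genotype, 19 held a library that stood far from the other 3 by Dixon's criterion (the gap to the nearest library as a share of the range), and chance flags about 1 in 20 groups. In TRaGS replicate 2, Atf4 was at 707 against 1008 to 1027 in the other 3, Ccr2 at 508 against 294 to 314, Ptpn2 at 129 against 238 to 247, Serinc3 at 1978 against 1241 to 1363 and Slfn1 at 498 against 348 to 362. Igkc in TRaGS replicate 1 was at 421 against 49.1 to 52.2, Jun in TRaGS replicate 3 at 489 against 142 to 201, and Il1rl1 in TRaGS replicate 4 at 362 against 642 to 677. Among TRaWT libraries, Dynlt3 in replicate 1 was at 132 against 89.8 to 96.2 and Ikzf2 at 4390.5 against 3439.5 to 3594. In TRaWT replicate 2, Gata3 was at 673 against 947 to 973, Il18rap at 5.03 against 23.3 to 25.5 and Rora at 296 against 469 to 502. Ccr3 in TRaWT replicate 3 was at 15.2 against 0 to 2.47, Evl at 664 against 391 to 418 and Mapre2 at 64.1 against 100.6 to 101.1. Gps2 in TRaWT replicate 4 was at 840.4 against 491 to 549.8, Nrp1 at 704 against 872 to 904 and Zcchc18 at 22.3 against 11.5 to 12.1.

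The genotype effect was called different between Treg and CD4 cells by limma's test of the difference for 8 genes named here. Without the variance trend 0 genes were called, and the call of Rora was lost in 6 of 13 alternatives. The effect was more positive in Treg for Vim (1.34), Ccr2 (2.66) and Rora (1.53). It was more negative in Treg for Bcl2 (-1.87), Smc4 (-0.86), Myo6 (-2.72), Klf3 (-1.01) and mt-Nd4 (-0.70).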

How the results depend on the processing

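Of the 106 calls 24 (18 higher, 6 lower) passed in all 20 alternatives, and 0 reversed in any. The total was 42 with TRaGS replicates 1 and 2 as the only TRaGS libraries (25 higher) and 62 without the filter on low values (50 higher, 12 lower); DESeq2 called 138, with 42 lower, and edgeR 90. Leaving out 1 library in turn gave 56 to 108 calls, 41 to 83 higher and 12 to 28 lower. The replicate numbers did not pair the animals (correlations of same-numbered deviations from -0.02 to 0.03); with the replicate block 112 genes were called and 106 of the 106 calls remained. The subset difference had 0 calls without the variance trend and 12 to 31 when 1 library was left out. Values near 0 changed sign: Cd3e to 0.062 (array weights) and 0.0083 (quantile normalisation), -0.10 to 0.10 leaving out 1 library; Ctla4 to -0.44 with TRaGS replicates 1 and 2, -0.23 to 0.26 leaving out 1 library; Foxp3 to 0.037 (array weights), -0.099 to 0.093; Smc4 to 0.10 (quantile normalisation); Thra to 0.015 (DESeq2), 0.0206 (array weights) and 0.0208 (edgeR), -0.29 to 0.13. Of the 43 list medians 24 kept their sign in every alternative and 19 changed it in at least 1. Changes of sign that exceeded the spread between libraries were in the TNF receptor superfamily (-0.028 with DESeq2, -0.0198 with edgeR), Treg core (-0.097 to 0.067 leaving out 1 library), autophagy (0.0178 with TRaGS replicates 1 and 2, -0.15 to 0.0082 leaving out 1 library) and glycosyltransferases (0.12 with array weights, -0.021 to 0.12 leaving out 1 library). The cause was not tested. Below a mean of 21.3 counts the median SE of 1.00 left only large differences detectable.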
